A study of Saccharomyces cerevisiae and Saccharomyces mikatae and Saccharomyces paradoxus with 13 samples.

Results

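Among 6132 ORFs on S. cerevisiae cDNA arrays, 8 genes of DNA break formation and repair were taken by their ORF names: the mating-type switching endonuclease gene HO (YDL227C), the recombination gene RDH54 (YBR073W), and 6 genes of nonhomologous end joining. The 6 were NEJ1 (YLR265C), LIF1 (YGL090W), DNL4 (YOR005C), YKU70 (YMR284W), YKU80 (YMR106C) and POL4 (YCR014C). No measured value entered the choice, although earlier results on these arrays were known when it was made. All 8 were found in the table.

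HO cuts the mating-type locus of haploid cells that can switch type, and the cut is repaired by copying a silent locus. A broken chromosome can also be rejoined end to end: the Ku proteins bind the ends, Nej1 and Lif1 bring in the ligase Dnl4, and the polymerase Pol4 fills gaps. HO, NEJ1 and RDH54 are known as haploid-specific genes, repressed in diploid cells by the a1 and alpha2 proteins, and HO is transcribed late in G1, after Start, the point before which alpha factor arrests a cells.

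The series compared the mating response of 3 budding yeasts on 13 arrays with 2 colours, each holding a treated and a reference sample. In the alpha factor groups, a-type haploid cells in YPD at 30 °C received 6 µM alpha factor, the mating peptide that alpha cells secrete. RNA taken 60 min later was set against RNA from the culture before the addition. Such arrays numbered 3 for S. cerevisiae BY4741, 3 for S. paradoxus (a haploid derived from CBS432) and 4 for S. mikatae (a haploid derived from IFO 1815). In the mating group, 3 arrays compared BY4741 and BY4742 cells (a-type and alpha-type) mixed for 90 min on a filter with the same cells kept apart until their RNA was extracted. Each species was represented by 1 strain, so species and strain cannot be told apart, nor can alpha factor and the 60 min between the samples. The mating and alpha factor arrays differ in cell types, time, use of a filter and reference sample. In mating minus alpha factor these cannot be told apart. The laboratory background of BY4741 is known for an inactive ho allele, and the labels do not say whether HO was intact in the other strains. In these RNA pools, fewer cells of a type and less RNA per cell cannot be told apart.

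Each value is the log2 of the treated signal over the reference signal, after subtraction of the array's median. The dye of the treated sample is given in conflicting ways by the labels. Directions are therefore likely rather than certain; their basis is the order of the channels and 8 mating genes used as a check. All 8 rose in S. cerevisiae and S. paradoxus, 6 of 7 measured rose in S. mikatae and 5 of 5 in mating. Measured ORFs numbered 5678 to 5964 per S. cerevisiae alpha factor array, 4367 to 4777 for S. paradoxus, 4253 to 4304 for S. mikatae and 3616 to 3740 for mating. HO, RDH54, LIF1 and YKU80 had a value on all 13 arrays. NEJ1 and DNL4 had none on the S. mikatae arrays, DNL4 had 1 on the S. paradoxus arrays, and YKU70 and POL4 had none on the mating arrays. The probes are S. cerevisiae sequences, and mismatch with RNA of the other species was not measured. Tests are limma's moderated tests, adjusted over all genes by the Benjamini-Hochberg method, and a gene was said to rise or fall at an adjusted p under 0.05. Each gene's spread was estimated from the arrays of all groups together, so a p-value does not rest on the SD printed for its group. Confidence intervals are per gene and are not adjusted for the number of genes.

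Most of the 8 genes moved little under alpha factor, RDH54 fell in every group, POL4 rose in 2 species, and LIF1 rose in mating alone among the 4 responses. In S. cerevisiae a cells 2 of 8 members fell (HO and RDH54) and none rose, against 33.6% of all 5789 genes called, 17.3% lower and 16.3% higher. Without adjustment, 3 members had a limma p under 0.05 there, 3 in S. paradoxus, 3 in S. mikatae and 5 in mating. In S. paradoxus POL4 rose and HO and RDH54 fell among 7 tested, where 48.5% of all genes were called, 23.9% higher and 24.6% lower. In S. mikatae the same 3 genes were called among 6 tested, where 48% of all genes were called, 23.3% higher and 24.7% lower. In mating LIF1 rose and RDH54, NEJ1 and DNL4 fell among 6 tested, where 39.6% of all genes were called, 19.4% higher and 20.2% lower. Many genes were called in every group, and whether the members differ from all genes as a group was not tested. The members' median was −0.05 in S. cerevisiae, −0.10 in S. paradoxus, −0.02 in S. mikatae and −0.31 in mating, while the median over all genes lay between −0.0026 and 0.0042.

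**Figure D1:**
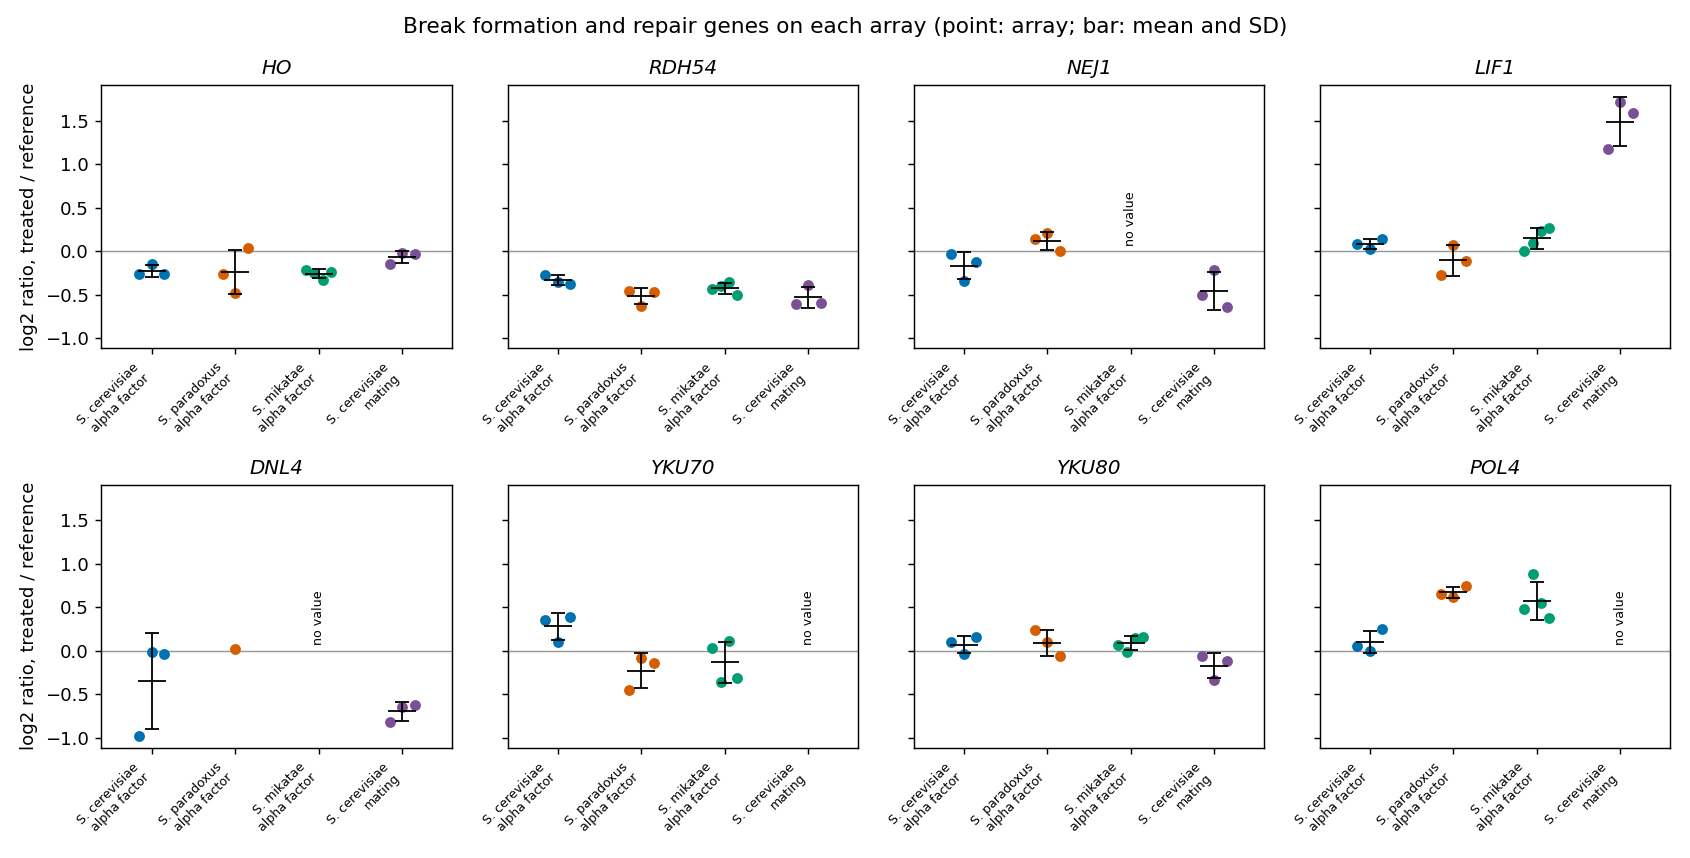
Log2 ratio of treated over reference cells (vertical axis) for each of the 8 genes on every array, by group (horizontal axis). Points are arrays, and bars are the group mean with its SD. RDH54 lies below 0 on all 13 arrays, LIF1 stands at 1.17 to 1.71 on the mating arrays, and POL4 at 0.38 to 0.88 on the S. paradoxus and S. mikatae arrays.

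HO, the endonuclease, was slightly lower after alpha factor in all 3 species. It read −0.26, −0.14 and −0.27 on the S. cerevisiae arrays, −0.26, −0.48 and 0.03 on the S. paradoxus arrays, and −0.22, −0.25, −0.33 and −0.24 on the S. mikatae arrays. All of these were below 0 but 1 S. paradoxus array. The mean was −0.22 ± 0.07 (SD, n = 3; limma adjusted p = 0.0488) in S. cerevisiae, −0.24 ± 0.26 (n = 3; adjusted p = 0.028) in S. paradoxus and −0.26 ± 0.05 (n = 4; adjusted p = 0.00798) in S. mikatae, a fall of 1.17-fold, 1.18-fold and 1.197-fold. By size these were close to a typical gene: 41.8% of genes tested moved more in S. cerevisiae, 50.1% in S. paradoxus and 40.9% in S. mikatae. The S. cerevisiae call was lost when any 1 of 11 of the 13 arrays was left out. Without 1 of its own 3 arrays the value was −0.20 to −0.26 (adjusted p up to 0.197). The rest of the 11 belong to other groups, and there the value stayed at −0.22 (adjusted p 0.0536 to 0.0622). The S. paradoxus call was lost without replicate 1 (−0.22, adjusted p = 0.106) or replicate 2 (−0.12, adjusted p = 0.3). It was also lost when the spread came from the S. paradoxus arrays only (limma adjusted p = 0.137). On the mating arrays HO read −0.15, −0.025 and −0.026, a mean of −0.07 ± 0.07 (n = 3; limma adjusted p = 0.537). The lowest mating array overlapped with the highest S. cerevisiae alpha factor array, and the difference, 0.16 with a 95% confidence interval of −0.09 to 0.40, was not called (adjusted p = 0.378).

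The species did not differ in HO by this test. S. paradoxus minus S. cerevisiae was −0.01 (95% confidence interval −0.26 to 0.23) and S. mikatae minus S. cerevisiae −0.04 (−0.27 to 0.196). Differences of either sign within these limits remain compatible with the data.

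RDH54, a DNA translocase related to Rad54 that acts in recombination between homologous chromosomes, fell in all 4 groups. It read −0.27, −0.35 and −0.38 on the S. cerevisiae alpha factor arrays and −0.46, −0.63 and −0.47 on those of S. paradoxus. It read −0.43, −0.41, −0.36 and −0.50 on the S. mikatae arrays and −0.61, −0.39 and −0.59 on the mating arrays. All 13 values were below 0, as they were for 219 of the 2194 genes measured on every array (9.98%). The group means were −0.33 ± 0.06 (SD, n = 3; 1.26-fold lower; limma adjusted p = 0.00207) in S. cerevisiae, −0.52 ± 0.0957 (n = 3; 1.43-fold; adjusted p = 3.34e-05) in S. paradoxus and −0.43 ± 0.06 (n = 4; 1.34-fold; adjusted p = 3.95e-05) in S. mikatae. In mating the mean was −0.53 ± 0.12 (n = 3; 1.44-fold lower; adjusted p = 4.22e-05). All 4 calls held under every alternative run. The S. paradoxus arrays lay below all S. cerevisiae arrays, as 18.7% of genes did, but the difference of −0.18 was not called (95% confidence interval −0.38 to 0.02; adjusted p = 0.195). Mating minus alpha factor in S. cerevisiae was −0.197 (−0.397 to 0.0025; adjusted p = 0.164), again not called.

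NEJ1, the haploid-specific activator of end joining, was measured in 3 of the 4 groups. It read −0.50, −0.21 and −0.65 in mating, −0.033, −0.34 and −0.12 in S. cerevisiae a cells, and 0.14, 0.21 and −0.0020 in S. paradoxus. It fell in mating by 0.45 ± 0.22 (n = 3; 1.37-fold; limma adjusted p = 0.00353). After alpha factor it stood at −0.17 ± 0.16 (adjusted p = 0.201) in S. cerevisiae and 0.12 ± 0.11 (adjusted p = 0.338) in S. paradoxus. Mating and alpha factor arrays of S. cerevisiae overlapped, and the difference of −0.29 (95% confidence interval −0.58 to 0.01) was not called (adjusted p = 0.167). The S. paradoxus arrays lay above all S. cerevisiae arrays, as 20.5% of genes did, with a difference of 0.28 (−0.01 to 0.58; adjusted p = 0.179). Of the 3 genes known as haploid-specific, RDH54 and NEJ1 fell in mating and HO was not called.

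In a list of 9 other haploid-specific genes (GPA1, STE4, STE18, STE5, FUS3, FAR1, RME1, AXL1 and AMN1), 5 rose and none fell in S. cerevisiae a cells (6 had an unadjusted p under 0.05; median 0.69). FUS3, the mating MAP kinase, rose by 2.06 ± 0.19, the G1 arrest gene FAR1 by 1.86 ± 0.18, AMN1 by 1.37 ± 0.36 and GPA1, the G protein alpha subunit, by 1.15 ± 0.16 (n = 3 each). In S. paradoxus 5 of 9 rose and STE4, the G protein beta subunit, fell by 0.70 ± 0.10 (median 0.40). In S. mikatae 4 of 7 rose and STE4 fell by 0.27 ± 0.07 (median 0.67). In mating 4 of 6 rose and RME1, a repressor of meiosis, fell by 0.22 ± 0.12 (median 0.53). Over all genes 16.3%, 23.9%, 23.3% and 19.4% were called higher in the order given, and 17.3%, 24.6%, 24.7% and 20.2% lower. Many genes of this list also belong to the pheromone pathway.

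Of the end joining genes proper, LIF1 gave the largest value. LIF1 encodes the partner that binds and stabilises the ligase Dnl4. It read 1.17, 1.71 and 1.59 on the mating arrays. On the alpha factor arrays it read 0.080, 0.024 and 0.14 in S. cerevisiae, −0.27, 0.076 and −0.11 in S. paradoxus, and 0.0039, 0.096, 0.23 and 0.27 in S. mikatae. The 3 mating arrays lay above all 10 alpha factor arrays, as did those of 11.3% of the 2194 genes measured on every array. The mating mean was 1.49 ± 0.28 (SD, n = 3; 2.81-fold higher; limma adjusted p = 1.22e-07), which placed LIF1 at rank 34 of 3712 genes. None of the alpha factor means was called: 0.08 ± 0.06 (adjusted p = 0.552) in S. cerevisiae, −0.10 ± 0.18 (adjusted p = 0.398) in S. paradoxus and 0.15 ± 0.12 (adjusted p = 0.16) in S. mikatae. Mating exceeded alpha factor in S. cerevisiae by 1.41 (95% confidence interval 1.12 to 1.71; adjusted p = 4.14e-05), rank 6 of 3648 genes. Across the species, the F test of any difference was not called for LIF1 (adjusted p = 0.302).

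The next gene beside LIF1 on the reference chromosome VII is MF(ALPHA)2, which encodes alpha factor and is expressed in alpha cells. By their names the genes lie on opposite strands, and no gene lies between them in the table. MF(ALPHA)2 read 1.26, 1.34 and 1.97 on the mating arrays, a rise of 1.53 ± 0.39 (SD, n = 3; limma adjusted p = 3.37e-07), close to the rise of LIF1. It exceeded its alpha factor value by 1.13 ± 0.16 (SE; adjusted p = 0.000421). In S. cerevisiae a cells it rose by 0.39 ± 0.19, where LIF1 stood at 0.08. NBP35, an iron-sulfur cluster assembly gene on the other side of LIF1, rose in mating by 0.52 ± 0.07 (adjusted p = 0.000227). Of 4 alpha cell markers 3 rose in mating, with the agglutinin SAG1 at 2.54 ± 0.11 and the a-factor receptor gene STE3 at 1.63 ± 0.16, while MF(ALPHA)1 was at 0.55 ± 0.55 (adjusted p = 0.0625). Of 7 a cell markers all 6 measured rose as well. In a cells after alpha factor, 2 of 3 alpha cell markers tested rose in S. cerevisiae, with SAG1 at 0.54 ± 0.28. In S. paradoxus and S. mikatae 1 of 3 rose, STE3, by 0.50 ± 0.05 and 0.33 ± 0.16. Over all genes 19.4% were called higher in mating, 16.3% in S. cerevisiae a cells, 23.9% in S. paradoxus and 23.3% in S. mikatae. Ratios give changes of these markers and not their levels. Which bases of each gene the probes cover was not given in the sources used here, and the part of MF(ALPHA)2 transcripts in the LIF1 signal was not tested.

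**Figure D2:**
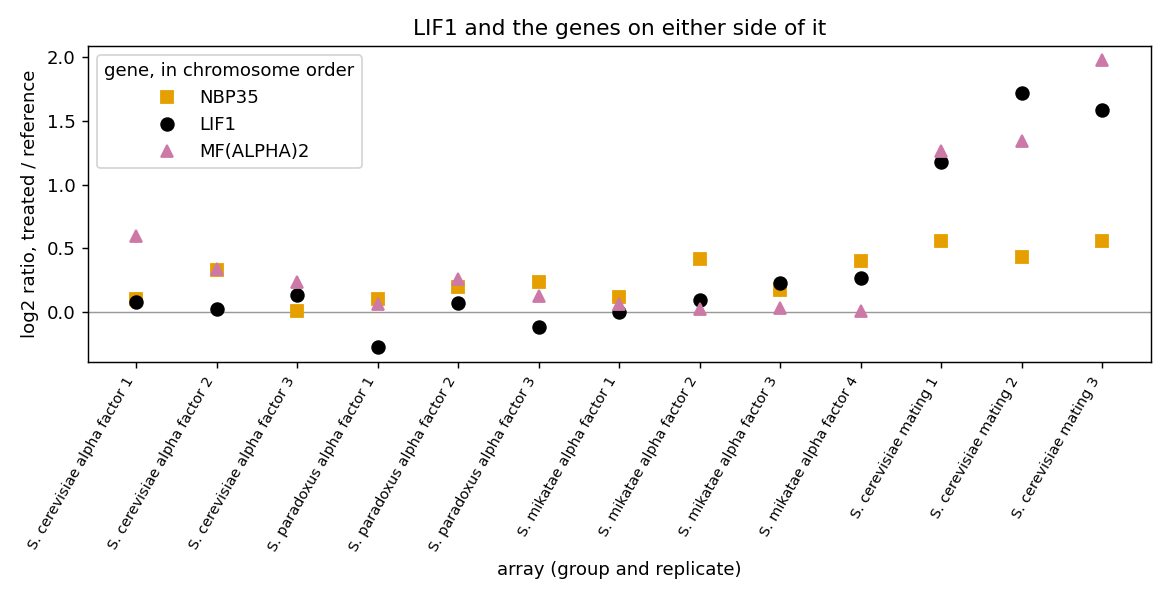
Log2 ratio (vertical axis) of LIF1 and of the genes on either side of it, NBP35 and MF(ALPHA)2, on each of the 13 arrays (horizontal axis). On the 3 mating arrays LIF1 (1.17 to 1.71) and MF(ALPHA)2 (1.26 to 1.97) overlap, and NBP35 lies at 0.43 to 0.56.

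DNL4, the ligase that Lif1 binds, moved the other way in mating. It read −0.82, −0.64 and −0.62 there, a mean of −0.69 ± 0.11 (SD, n = 3; 1.62-fold lower; limma adjusted p = 0.0117). Without mating replicate 1 the call was lost (−0.63, adjusted p = 0.063). In S. cerevisiae a cells replicate 1 read −0.98 and the other arrays −0.011 and −0.037, so the mean of −0.34 ± 0.55 (adjusted p = 0.156) rests on 1 array. Without that array mating minus alpha factor was −0.67 (adjusted p = 0.0134), against −0.35 with it (adjusted p = 0.35). The single S. paradoxus value was 0.019. The gene beside DNL4, UTP23 of ribosome biogenesis, stood at −0.24 ± 0.43 (n = 2) in mating, and TSR3 on the other side rose by 0.28 ± 0.11.

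YKU70 and YKU80 encode the subunits of the Ku heterodimer, which binds broken ends and telomeres. YKU80 read 0.098, −0.038 and 0.16 in S. cerevisiae a cells, 0.24, 0.11 and −0.063 in S. paradoxus, 0.064, −0.0066, 0.15 and 0.16 in S. mikatae, and −0.063, −0.33 and −0.11 in mating. It was called in none of the 4 responses. Its means were 0.07, 0.09 and 0.09 after alpha factor in the order given, and −0.17 ± 0.14 in mating (95% confidence interval −0.33 to −0.01; limma adjusted p = 0.0927). All 3 mating arrays lay below all S. cerevisiae alpha factor arrays, as 19.3% of genes did, and the difference of −0.24 was not called (−0.48 to −0.01; adjusted p = 0.14).

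YKU70 read 0.36, 0.10 and 0.39 in S. cerevisiae a cells, −0.45, −0.082 and −0.14 in S. paradoxus, and 0.030, −0.35, 0.11 and −0.31 in S. mikatae. Every S. cerevisiae array was above 0 and every S. paradoxus array below it, a lower position without overlap that 18.7% of genes shared, while the S. mikatae arrays were on both sides. The means of 0.28 ± 0.16 (limma adjusted p = 0.0643), −0.22 ± 0.199 (adjusted p = 0.108) and −0.13 ± 0.24 (adjusted p = 0.275) were not called against 0. S. paradoxus lay below S. cerevisiae by −0.51 (95% confidence interval −0.84 to −0.17; adjusted p = 0.0442). That call was lost when any 1 of 6 arrays was left out (adjusted p up to 0.151) and with a replicate block (adjusted p = 0.0523). The smallest difference, −0.39, came without S. paradoxus replicate 1. S. mikatae replicate 1 is among the 6 though not in the comparison, and leaving it out moved only the adjusted p (0.0527). S. mikatae minus S. cerevisiae was −0.41 (−0.73 to −0.098; adjusted p = 0.0892). The F test of any difference among the species gave an adjusted p of 0.056 for YKU70 and 0.986 for YKU80, with 23.8% of all genes called, and whether the 2 subunits differed from each other was not tested.

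POL4, the gap-filling polymerase of end joining, rose in S. paradoxus and S. mikatae. It read 0.66, 0.62 and 0.74 on the S. paradoxus arrays, 0.48, 0.88, 0.55 and 0.38 on the S. mikatae arrays, and 0.057, 0.0046 and 0.25 on the S. cerevisiae arrays. All 10 were above 0, as for 15% of the genes measured on all alpha factor arrays, and the 7 arrays of the other species lay above all 3 of S. cerevisiae. Of all genes, 20.5% lay higher without overlap in S. paradoxus than in S. cerevisiae, and 14.6% in S. mikatae. The rise was 0.67 ± 0.06 (SD, n = 3; 1.59-fold; limma adjusted p = 0.00012) in S. paradoxus, rank 213 of 4748 genes, and 0.58 ± 0.22 (n = 4; 1.49-fold; adjusted p = 0.00011) in S. mikatae, rank 240 of 4367. In S. cerevisiae the mean was 0.10 ± 0.13 (adjusted p = 0.414). The difference was 0.57 for S. paradoxus (95% confidence interval 0.28 to 0.85; adjusted p = 0.0129) and 0.47 for S. mikatae (0.20 to 0.74; adjusted p = 0.0271). These comparisons share the 3 S. cerevisiae arrays. The S. mikatae difference was lost without S. cerevisiae replicate 1 (0.45, adjusted p = 0.097) or replicate 2 (0.42, adjusted p = 0.0898). S. mikatae and S. paradoxus did not differ by this test (−0.0968; −0.36 to 0.17; adjusted p = 0.665). Beside POL4, the glycolytic gene PGK1 was at 0.08 (n = 2) in S. paradoxus and −0.03 ± 0.09 in S. mikatae, and CTO1 on the other side rose by 0.24 ± 0.02 in S. paradoxus and had no value in S. mikatae.

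**Figure D3:**
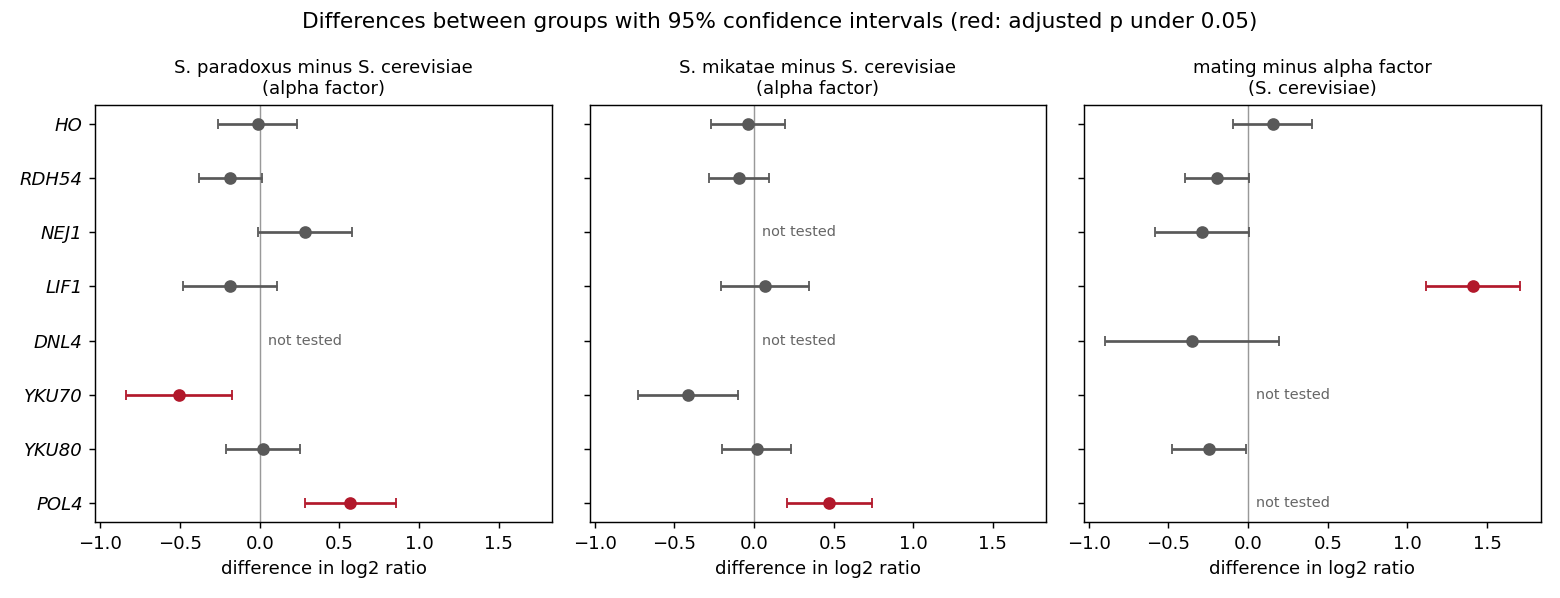
Differences in log2 ratio between groups (horizontal axis) for each gene (vertical axis), with unadjusted 95% confidence intervals from the limma fit. The calls, in red, are YKU70 at −0.51 and POL4 at 0.57 for S. paradoxus minus S. cerevisiae, POL4 at 0.47 for S. mikatae minus S. cerevisiae, and LIF1 at 1.41 for mating minus alpha factor.

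Of the tests between groups, 2 of 7 members were called for S. paradoxus against S. cerevisiae, where 16.3% of all genes were (9.07% higher, 7.25% lower), and 1 of 6 for S. mikatae against S. cerevisiae, where 11.9% were (6.38% higher, 5.49% lower). For S. mikatae against S. paradoxus limma called 0 of 6, and 0 had an unadjusted p under 0.05, against 13.7% of all genes called (6.04% higher, 7.68% lower). For mating against alpha factor it called 1 of 6, where 16% of all genes were called (8.63% higher, 7.37% lower).

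**Figure D4:**
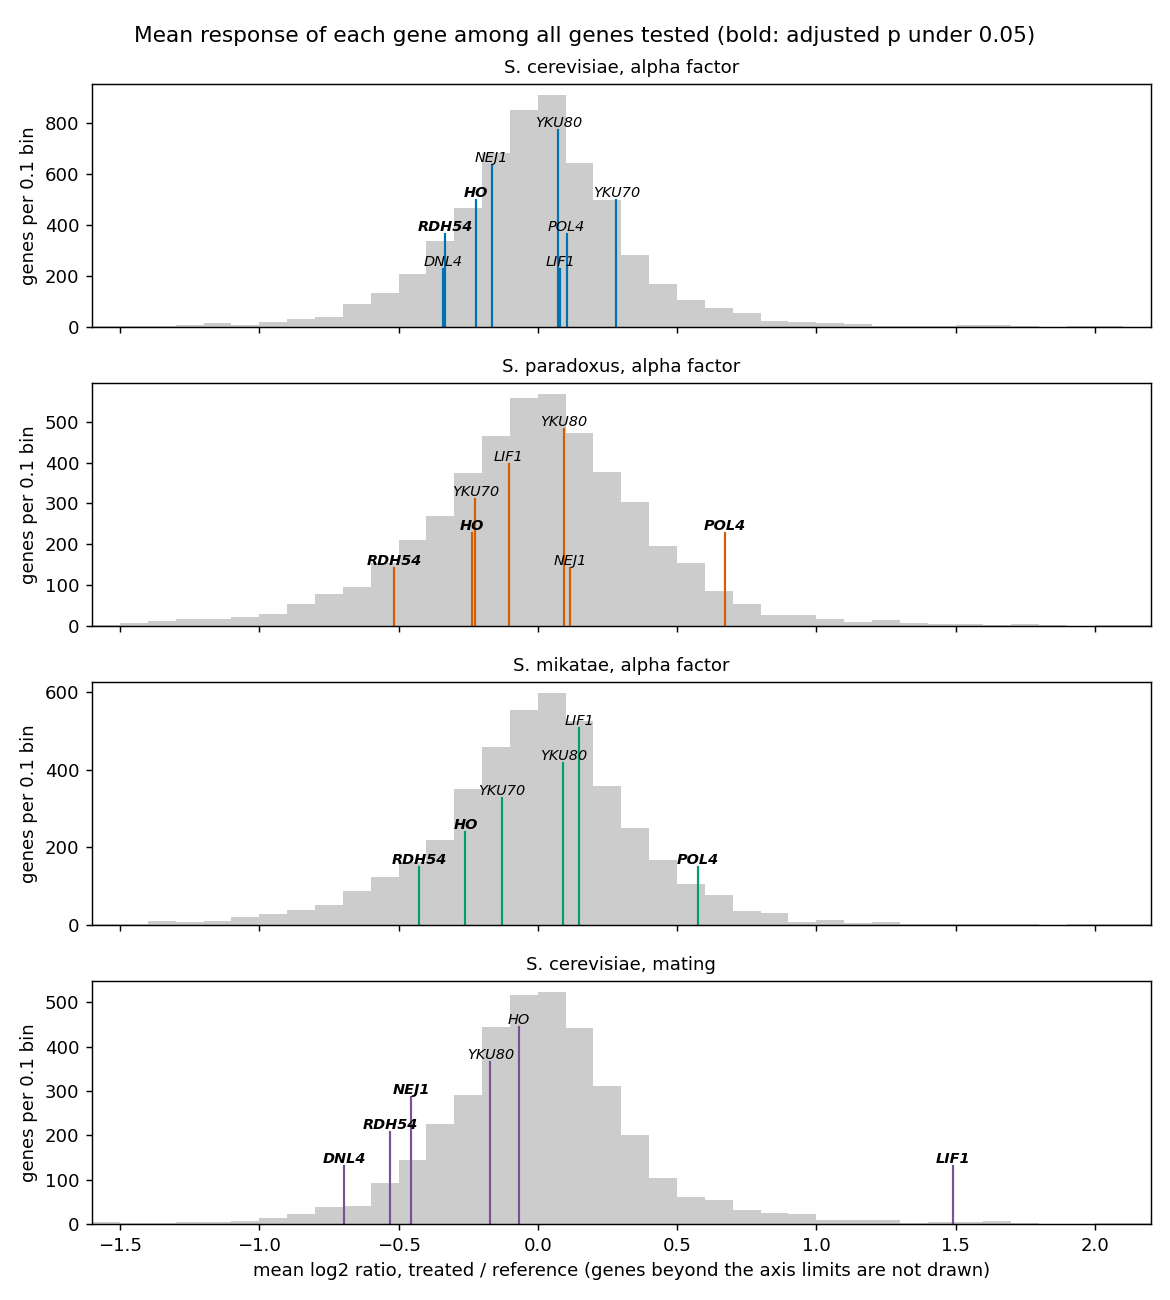
Distribution of the mean log2 ratio over all genes tested in each group (grey bars, genes per bin of 0.1 on the vertical axis), with the members marked at their own mean. In the mating panel LIF1 lies at 1.49, far in the upper tail, while DNL4, RDH54 and NEJ1 lie on the lower flank between −0.69 and −0.45.

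Genes that work with the members were described from lists written from general knowledge. Over all genes, 33.6% were called in S. cerevisiae (16.3% higher, 17.3% lower) and 48.5% in S. paradoxus (23.9% higher, 24.6% lower). In S. mikatae 48% were called (23.3% higher, 24.7% lower) and in mating 39.6% (19.4% higher, 20.2% lower). Counts in this and the following lists are to be read against these shares, and no list was tested against all genes. Of 9 partners of end joining (the MRX complex MRE11, RAD50 and XRS2, the flap nuclease RAD27, the end phosphatase TPP1, the SIR genes and TEL1), 2 rose and 2 fell of 8 tested in S. cerevisiae a cells (median −0.02). RAD27 fell by 0.86 ± 0.34 and SIR3, of silent chromatin, by 0.51 ± 0.22, while XRS2 rose by 0.26 ± 0.15 and TPP1 by 0.24 ± 0.02. In S. paradoxus RAD27 fell by 0.80 ± 0.30 and none of the other 5 tested was called (median −0.08). In S. mikatae MRE11 rose by 0.48 ± 0.36 among 4 tested (median −0.12). In mating TPP1 rose and RAD27, SIR3 and SIR2 fell among 6 tested (median −0.19), with RAD27 at −0.75 ± 0.10.

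Of 25 genes of homologous recombination, 5 rose and 2 fell of 23 tested in S. cerevisiae a cells (median −0.09). RAD52, a mediator of strand exchange, rose by 0.76 ± 0.51, SHU1 by 0.44 ± 0.08 and RAD59 by 0.35 ± 0.15, and the single-strand binding subunit RFA2 fell by 0.43 ± 0.23. In S. paradoxus none rose and 5 fell of 21 (median 0.02), among them RMI1 by 0.38 ± 0.13, TOP3, RFA3 and RAD55. In S. mikatae 5 rose and 2 fell of 18 (median 0.12). In mating 4 rose and 3 fell of 12 (median 0.09), with RAD52 at 1.2 ± 0.61 and RFA3 at −0.58 ± 0.12. RAD54, the relative of RDH54, rose in S. mikatae by 0.28 ± 0.14 (n = 3), where RDH54 fell. RAD54 was named after its values were seen and is described for S. mikatae only. Whether the 2 genes differed was not tested.

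Of 20 regulators of HO, 19 were in the table. In S. cerevisiae a cells 2 rose and 2 fell of 18 tested (median −0.15). ASH1, the daughter-cell repressor of HO, rose by 0.69 ± 0.11, and SWI3, a subunit of the activating SWI/SNF complex, by 0.24 ± 0.11. The corepressor gene SIN3 fell by 0.62 ± 0.08 (limma adjusted p = 0.0485), and SWI4, the DNA-binding subunit of the late G1 factor SBF that activates HO, by 0.32 ± 0.11. The called genes thus hold an activator and a repressor in each direction. In S. paradoxus 2 rose and 2 fell of 16 (median 0.10): SIN4, of the Mediator complex, rose by 1.03 ± 0.17 and ADA2, of the SAGA complex, by 0.43 ± 0.12, while SHE2, which carries ASH1 mRNA, fell by 0.41 ± 0.27 and SWI4 by 0.36 ± 0.07. In S. mikatae 1 rose and 3 fell of 15 (median −0.06): ADA2 rose by 0.29 ± 0.08, and SHE2 fell by 0.61 ± 0.099, SNF5, of SWI/SNF, by 0.59 ± 0.26 and SWI4 by 0.33 ± 0.06. In mating none rose and 4 fell of 10 (median −0.11): SWI5, the mother-cell activator of HO, by 0.76 ± 0.18, ASH1 by 0.62 ± 0.45, SHE2 by 0.48 ± 0.05 and SWI3 by 0.26 ± 0.09.

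Of 29 genes transcribed late in G1, the phase of HO, 14 fell and 2 rose of 27 tested in S. cerevisiae a cells (median −0.30), 11 fell and 1 rose of 25 in S. paradoxus (median −0.29), and 8 fell and 2 rose of 23 in S. mikatae (median −0.11). In mating 11 fell and 2 rose of 17 (median −0.58). Over all genes 17.3%, 24.6%, 24.7% and 20.2% were called lower in that order, so the list's share in S. mikatae was the nearest to that of all genes. RNR1, the ribonucleotide reductase subunit, fell by 1.52 ± 0.08, 1.33 ± 0.15, 1.39 ± 0.11 and 1.18 ± 0.11 in the same order, several times the fall of HO on the log2 scale. PCL2, a G1 cyclin gene, rose in all 4 groups, by 2.13 ± 0.26 to 3.35 ± 0.62.

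Of 11 telomere genes 1 rose and 1 fell of 9 tested in S. cerevisiae (median −0.03), none and 1 of 9 in S. paradoxus (median 0.08), 1 and 3 of 5 in S. mikatae (median −0.31), and 1 and 1 of 5 in mating (median −0.02). RIF1, which limits telomere length, fell by 0.49 ± 0.13 in S. paradoxus and 0.31 ± 0.10 in S. mikatae. Of 17 DNA damage checkpoint genes 3 rose and 4 fell of 15 in S. cerevisiae (median −0.08), 4 and 2 of 14 in S. paradoxus (median −0.04), 2 and 4 of 14 in S. mikatae (median 0.0096), and none and 4 of 10 in mating (median −0.20). The damage-inducible RNR3 fell in all 4 groups, by 0.97 ± 0.21, 0.44 ± 0.17, 0.62 ± 0.13 and 0.64 ± 0.30. RNR2 and RNR4, also subunits of ribonucleotide reductase, rose in all 3 alpha factor groups. RNR2 rose by 0.28 ± 0.16, 0.38 ± 0.05 and 0.34 ± 0.24, and RNR4 by 0.28 ± 0.07, 0.37 ± 0.08 and 0.30 ± 0.12. In mating RNR2 stood at 0.06 ± 0.15 (adjusted p = 0.634). Of 5 genes for the replicative ligase and the translesion polymerases, REV7 rose by 0.30 ± 0.01 (n = 2) in S. paradoxus and 0.28 ± 0.21 in S. mikatae, where 3 were tested (medians 0.22 and 0.14). None of 4 was called in S. cerevisiae (median 0.0965), where 2 had an unadjusted p under 0.05, and none had enough values in mating.

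Likeness to other genes was measured as the root mean square difference of log2 ratio over arrays with both values, at least 10 of them. For HO, out of 4045 genes, the nearest were ARL3, a Golgi GTPase gene (0.109, 12 arrays), POL3, the catalytic subunit of DNA polymerase delta (0.109, 12 arrays), and SLG1, a cell wall sensor (0.117, 13 arrays). For RDH54 they were UTP8 (0.103), the inositol transporter ITR2 (0.106) and the kinase DBF20 (0.112), each over 10 arrays. UTP8 and ITR2 had no value on the mating arrays, and DBF20 had none on the S. paradoxus arrays. For LIF1 they were SPT14, MPE1 and CAJ1 (0.104 to 0.124), none of which had a value on the mating arrays, where LIF1 was high. For POL4, out of 3521 genes, they were RPN11, a proteasome subunit (0.146), LRE1 (0.158) and SCO1, which delivers copper to cytochrome oxidase (0.159). RPN11 stood at 0.21 in S. cerevisiae, 0.74 in S. paradoxus and 0.65 in S. mikatae. NEJ1 and DNL4 had values on too few arrays for this measure, which was taken for members called in a response and so not for YKU70 and YKU80.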

How the data were processed

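The authors deposited 1 log2 ratio per ORF and array, for 6132 ORFs and 13 arrays. Per the labels' protocols, cDNA was made from total RNA and labelled with Cy3 and Cy5 by the indirect amino-allyl method. Not given in the sources used here are the scanner, background correction, normalization, log base, sign and handling of missing values. Ratios were read on the log2 scale, channel 1 (the treated or mated cells) divided by channel 2. The deposited medians ran from −0.0093 to 0.0081 and were subtracted. Replicate arrays of a group correlated at 0.736 to 0.899 across genes and shared no value. The study's design text calls them biological replicates. Where they shared a culture or a reference sample, p-values measure only the spread between arrays.

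Symbols came from a reference gene table and covered 5665 ORFs (43 only once a dash was inserted). No coordinates were used beyond the order of genes. No sequences were used. The limma model (version 3.58.1, under R 4.3.3 with statmod 1.5.0) held all arrays and gave each group its own mean. A gene was tested where each group compared had 2 or more values. Missing values were left out, never imputed. Means were tested against 0 and differences by contrasts, with Benjamini-Hochberg adjustment over all genes tested and a threshold of 0.05. An F test covered any difference among the species. SD is over arrays, and SE and confidence intervals are from the fit. The intervals are not adjusted, so an interval can exclude 0 where the adjusted p is not under 0.05. The procedure was tested on simulated data.

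The members and lists were chosen with earlier results of these data known. All 8 members are named. Genes named from the other lists come from the 4 largest called per comparison, or from all called where these were 5 or fewer. The 3 genes most like each member called in a response are named too. A called gene of the recombination list is not reported here. RAD54, RNR2 and RNR4 were named after their values were seen. Alternatives were quantile normalization, scaling of arrays to one spread, no centring, 3 arrays per group, a fit to only the arrays compared, only genes with a value on every array, robust eBayes, array weights, a replicate block, and each of the 13 arrays left out in turn.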

Additional observations from a re-analysis of the deposited data

Results flagged for a closer look

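In 4 cases a test of the difference between groups was called for a member (limma, adjusted p under 0.05). LIF1 was 1.41 higher on the log2 scale in mating than after alpha factor in S. cerevisiae. Its 3 mating arrays lay above all 10 alpha factor arrays, as for 11.3% of the 2194 genes measured on every array. POL4 was 0.57 higher in S. paradoxus and 0.47 higher in S. mikatae than in S. cerevisiae. Its arrays did not overlap in either comparison, and 20.5% and 14.6% of all genes lay higher without overlap in that order. YKU70 stood at −0.51 in S. paradoxus relative to S. cerevisiae, with no overlap of arrays, as 18.7% of all genes did, and the call was lost in 7 of 21 alternatives.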

How the results depend on the processing

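Of 52 values of a member in a response or difference, 16 were called. Of these, 11 were called under every alternative that gave a value, and none changed direction. Calls of HO in S. cerevisiae and S. paradoxus, DNL4 in mating, YKU70 between S. paradoxus and S. cerevisiae, and POL4 between S. mikatae and S. cerevisiae were lost in some. HO in S. cerevisiae lost its call with only the arrays compared (adjusted p = 0.0573), and HO in S. paradoxus there (0.137), with scaled arrays (0.0542) and after quantile normalization (0.0519). POL4 between S. mikatae and S. cerevisiae was lost with only the arrays compared (0.0533). YKU70 became called in S. cerevisiae with scaled arrays (0.32), quantile normalization (0.33) and array weights (0.33), and in S. paradoxus with array weights (−0.28). The causes were not tested.

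Differences near 0 turned sign. S. paradoxus minus S. cerevisiae became 0.053 for HO with scaled arrays and 0.046 after quantile normalization, and for YKU80 −0.0071 and −0.011. S. mikatae minus S. paradoxus became 0.0012, 0.016 and 0.023 for YKU80 with no centring, scaled arrays and quantile normalization, and 0.0013 for HO with array weights. S. mikatae minus S. cerevisiae became −0.0071 for LIF1 and −0.023 for YKU80 with array weights. With 1 array left out, HO ran from −0.147 to 0.108 (S. paradoxus minus S. cerevisiae), −0.058 to 0.0032 (S. mikatae minus S. cerevisiae) and −0.144 to 0.111 (S. mikatae minus S. paradoxus). In the same order YKU80 ran from −0.052 to 0.099, −0.039 to 0.062 and −0.081 to 0.070, and YKU70 from −0.019 to 0.17 for S. mikatae minus S. paradoxus.

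In an alternative only the 2194 genes measured on all arrays were tested. Before, 5789 were tested in S. cerevisiae, 4748 in S. paradoxus, 4367 in S. mikatae and 3712 in mating. For S. paradoxus and S. mikatae minus S. cerevisiae, 4718 and 4357 were tested. Called genes numbered 823 in S. cerevisiae (1946 before), 1193 in S. paradoxus (2303), 1245 in S. mikatae (2095) and 936 in mating (1469). They numbered 421 for S. paradoxus minus S. cerevisiae (770) and 341 for S. mikatae minus S. cerevisiae (517). These counts were lower, but the share of tested genes that was called was not. Array weights raised S. mikatae minus S. cerevisiae to 838 and mating minus alpha factor to 888 (584 before). With 1 array left out, counts ran from 1124 to 2063 in S. cerevisiae, 968 to 1492 in mating, 446 to 843 for S. paradoxus minus S. cerevisiae, 309 to 540 for S. mikatae minus S. cerevisiae and 294 to 636 for mating minus alpha factor. No pairing of arrays by replicate number was seen. In deviations from the group means, r was −0.261 to 0.334 over 18 same-numbered pairs and −0.336 to 0.378 over the other 45. With so few arrays per group, this check cannot exclude a pairing. A replicate block left 1935 calls in S. cerevisiae and 672 for S. paradoxus minus S. cerevisiae, and took YKU70 there to an adjusted p of 0.0523. It changed no other call of a member. The number of arrays limits the precision.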
